A study of Mus musculus with 6 samples.

Results

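Complement was followed in the inflamed mouse colon through 9 genes: the C1q chains C1qa, C1qb and C1qc, the convertase genes C2, C3, C4b and Cfb, and the anaphylatoxin receptors C3ar1 and C5ar1. They were taken by gene symbol from the deposited table of 18477 genes, and 9 of 9 were found. Colon RNA came from male C57BL/6 mice, aged 6 to 8 weeks at purchase, all given drinking water with 2% dextran sulfate sodium (DSS), which damages the lining of the colon, from day 8 to day 14. The DSS group (n = 3) was gavaged daily with PBS for 14 days, and the DSS+BV group (n = 3) with the gut bacterium *Bacteroides vulgatus* in PBS. Nothing in the sources used here says that each library came from a separate mouse, so p-values measure the spread between libraries, part of which may be technical. No library from a mouse without DSS was analysed here, so levels are compared between the groups and not with an uninflamed colon. The comparison asks which complement genes differed in the colon when *B. vulgatus* was given before and during DSS.

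Complement is a cascade of proteins that tags and lyses microbes and recruits leukocytes. The classical route starts when C1q, assembled from the chains A, B and C, binds immune complexes or surfaces and the attached proteases cleave C4 and C2. The alternative route runs through factor B (Cfb), and both routes build a convertase that cleaves C3. The fragments C3a and C5a, the anaphylatoxins, act on the receptors encoded by C3ar1 and C5ar1, which are best known on myeloid cells. Most circulating complement is made by the liver. In the gut, macrophages are the usual source of C1q, and stromal and epithelial cells can make C3.

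The C1q genes lie next to each other on chromosome 4 and span 18719 bases from the start of C1qb to the end of C1qa (C1qb at 136880126-136886200, C1qc at 136889801-136892936 and C1qa at 136895916-136898844, RefSeq on GRCm38.p6). C4b (34728139-34743902), Cfb (34856374-34862514) and C2 (34862602-34882100) lie close together on chromosome 17, with 87 bases between Cfb and C2. C3 lies farther along the same chromosome (57203967-57228136), C3ar1 on chromosome 6 (122847140-122856157) and C5ar1 on chromosome 7 (16246743-16259540). RefSeq promoters, the 250 bases before and 50 after each annotated start, were available for 5 of the 9 genes. Those of C3, the member with the widest difference between the groups, and of the neighbours C1qb and C1qc, whose levels ran together across libraries, are shown 5′ to 3′ with motif matches in capitals. They lie on the minus strand of GRCm38.p6 at chr17:57228087-57228386, chr4:136886151-136886450 and chr4:136892865-136893164.
C3: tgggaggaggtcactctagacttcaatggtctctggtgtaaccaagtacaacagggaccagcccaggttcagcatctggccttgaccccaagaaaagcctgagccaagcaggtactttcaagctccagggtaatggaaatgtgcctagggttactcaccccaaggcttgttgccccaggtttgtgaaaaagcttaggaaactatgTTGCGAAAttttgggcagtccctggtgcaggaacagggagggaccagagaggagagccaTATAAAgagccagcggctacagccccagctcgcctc
C1qb: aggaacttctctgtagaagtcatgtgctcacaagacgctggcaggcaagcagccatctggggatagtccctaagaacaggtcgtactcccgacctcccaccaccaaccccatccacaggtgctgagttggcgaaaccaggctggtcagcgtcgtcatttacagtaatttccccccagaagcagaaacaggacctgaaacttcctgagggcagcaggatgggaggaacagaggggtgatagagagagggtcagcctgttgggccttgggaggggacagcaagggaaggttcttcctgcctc
C1qc: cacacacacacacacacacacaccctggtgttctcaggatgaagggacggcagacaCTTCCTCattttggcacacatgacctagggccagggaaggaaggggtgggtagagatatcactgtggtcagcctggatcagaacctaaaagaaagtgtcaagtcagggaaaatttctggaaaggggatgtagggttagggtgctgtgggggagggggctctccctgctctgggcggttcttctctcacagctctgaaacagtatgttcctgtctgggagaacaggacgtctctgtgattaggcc

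The promoters were searched on both strands for 7 motifs: the STAT site TTCNNNGAA, the NF-kB letters GGGANTTTC, the interferon response core GAAANNGAA, the C/EBP site TTGCNNAA, the PU.1 core GAGGAAG, the AP-1 site TGANTCA and the TATA box TATAAA. No match in a member window overlapped another. C3 held a C/EBP match that ended 38 bases before the annotated start, and TATAAA from base 15 to base 20 after it. C1qc held a PU.1 match on the opposite strand, and C1qb held none of the 7 motifs. C3ar1 held TATAAA and an AP-1 match, and C5ar1 an interferon response match, in windows not printed. Over 32851 promoters of the same length, 10.8% held the C/EBP letters, 13.6% the PU.1 core, 13.6% TATAAA, 7.81% the AP-1 site, 8.56% the interferon response core, 8.30% the STAT site and 1.11% the NF-kB letters. The STAT and NF-kB letters were in 0 of the 5 member windows. A match is a run of letters only, and binding was not measured.

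Library totals lay between 15293276 and 17254343 expected counts. The libraries did not fall apart by group over all genes: DSS 1 correlated more closely with DSS+BV 1 (r = 0.967 across genes, which are not independent replicates) than with DSS 2 (r = 0.936), and DSS 2 most closely with DSS+BV 2 (r = 0.963). Fold changes of members are therefore also given with single libraries left out. Summed levels of several cell type marker lists differed between the groups. Of the macrophage and monocyte markers, 11 of 12 had a log2 fold change below 0, and their summed level in CPM (counts scaled to library size) overlapped between the groups (772 to 1527 CPM against 493 to 1160 CPM). The neutrophil markers were lower in 11 of 11 tested genes, with sums of 153 to 228 CPM in the DSS group and 14.9 to 29.3 CPM in the DSS+BV group. Fibroblast markers were lower in 12 of 12 (4101 to 4306 against 1493 to 2191 CPM) and epithelial markers in 1 of 12 (13150.0 to 21900.0 against 22720.0 to 41750.0 CPM). Endothelial (8 of 8 lower), smooth muscle (7 of 8), B and plasma cell (8 of 8), T cell (4 of 7), dendritic cell (6 of 8) and mast cell (3 of 4) markers make up the other lists, and among these the summed level overlapped between the groups in all but the endothelial one (451 to 603 against 326 to 413 CPM). Every marker of the macrophage, fibroblast and epithelial lists was above 0 in every library, while 2 neutrophil markers were at 0 in at least 1 library and Camp had too few counts to test. In whole colon, fewer cells of a type and less RNA per cell cannot be told apart, and the part of these cell lists in the results on complement was not tested.

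Every member had a log2 fold change below 0 in the DSS+BV group (9 of 9), with a median of -0.89 against -0.01 over all 14579 genes tested. Of all genes tested, 51.5% had a log2 fold change below 0. EdgeR's quasi-likelihood fit called 0 of 9, against 0.0892% of all genes tested, where a call needed both an adjusted p below 0.05 and a log2 fold change beyond 1 in either direction. At an unadjusted p under 0.05, 3 of 9 were lower, C3, C4b and C5ar1, where 9.12% of all genes were. DESeq2 called 1 of 9, C3, against 1.73% of its genes in the lower direction. C3 and C4b were the members whose groups did not overlap (2 of 9, against 11.3% of all genes in this direction). No member lay higher in every DSS+BV library, as 6.37% of all genes did. Without DSS 2 the count without overlap was 8 of 9, where 17.5% of all genes parted, and without DSS+BV 1 it was also 8 of 9, where 20.5% did. It was 2 of 9 with each of the other libraries left out, where between 12.7% (without DSS+BV 2) and 19% (without DSS 1) of all genes parted. Values below are listed in the order of libraries 1, 2 and 3 of a group.

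**Figure D1:**
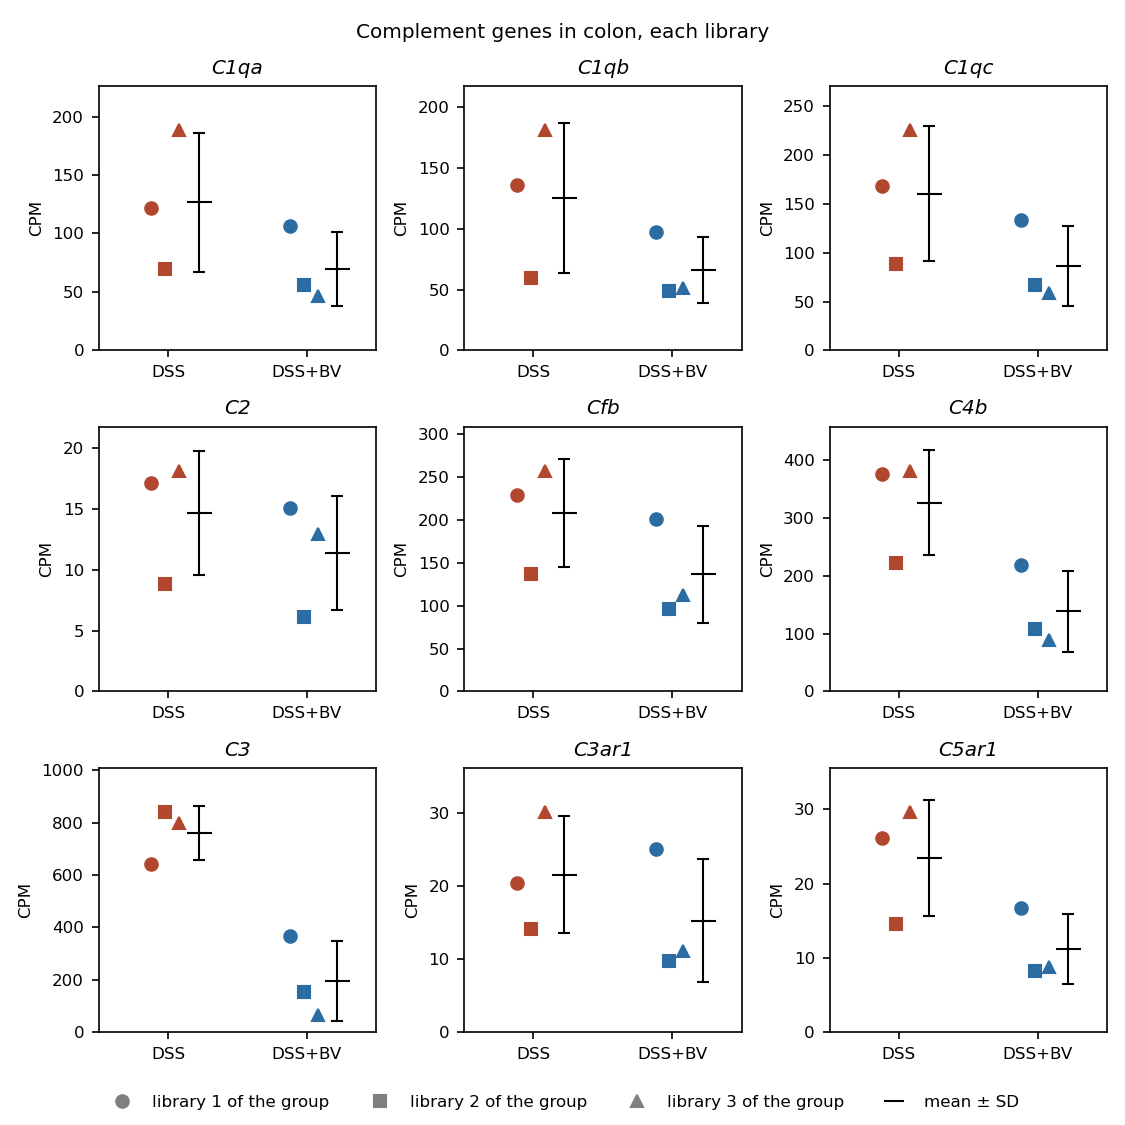
Levels of the 9 members in CPM (linear axis from 0) in the 3 DSS and the 3 DSS+BV libraries, with the mean and SD of each group beside the points; marker shapes number the libraries within a group and pair nothing. For C3 and C4b all 3 DSS+BV points lie below all 3 DSS points, while for the other 7 members the square of DSS 2 lies below the circle of DSS+BV 1.

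C3, the protein on which all routes converge, showed the widest difference. Its level was 643, 840.0 and 797 CPM (DSS) against 366, 154 and 68.0 CPM (DSS+BV). The DSS libraries lay close to each other, the DSS+BV libraries were spread more widely, and DSS+BV 1 was the nearest to the DSS group. The means were 760.1 ± 103.5 and 195.8 ± 153.4 CPM (SD, n = 3 each), 3.88-fold apart, and the log2 fold change was -1.96 ± 0.571 (standard error), with an edgeR adjusted p of 0.320. DESeq2 gave -1.94 with an adjusted p of 0.0175. With 1 library left out, the edgeR value (written ± its standard error here and below) lay between -2.77 (without DSS+BV 1) and -1.55 (without DSS+BV 3), with adjusted p-values between 0.118 and 0.903.

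C4b, which encodes the C4 cleaved in the classical and lectin routes, was at 376, 222 and 381 CPM (DSS) against 219, 108 and 88.2 CPM (DSS+BV). The groups parted by a narrow margin, since DSS 2 and DSS+BV 1 were nearly level. Its means were 326.5 ± 90.2 and 138.5 ± 70.5 CPM (SD, n = 3 each), with a log2 fold change of -1.24 ± 0.392 (edgeR adjusted p = 0.334, DESeq2 adjusted p = 0.0769). The fold change ran from -1.72 without DSS+BV 1 to -0.99 without DSS+BV 3. C4b was the only member with values that were not whole numbers, as arise when RSEM divides reads between similar genes. Its near copy C4a, 65189 bases away, received 7.07 to 16.25 expected counts per library, against 1394.93 to 6542.88 for C4b.

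Cfb, the protease of the alternative convertase, was at 229, 137 and 257 CPM (DSS) against 201, 96.6 and 112 CPM (DSS+BV). DSS+BV 1 lay above DSS 2, so the groups overlapped, and the log2 fold change was -0.60 ± 0.349 (edgeR adjusted p = 0.518). For Cfb it was -0.98 without DSS+BV 1, -0.82 without DSS 2 and -0.40 without DSS+BV 2. C2, its counterpart in the classical convertase, had the smallest fold change of the members, at 17.1, 8.83 and 18.1 CPM (DSS) against 15.1, 6.12 and 13.0 CPM (DSS+BV). Only for C2 did a further DSS+BV library, DSS+BV 3, lie above DSS 2. Its log2 fold change was -0.37 ± 0.416 (edgeR adjusted p = 0.741), and it ran from -0.62 without DSS 2 and -0.61 without DSS+BV 1 to -0.19 without DSS 3 and -0.06 without DSS+BV 2. GENCODE M21 (GRCm38) places the read-through gene Gm20547, which is not a row of the table, on the same strand over Cfb and C2, and Zbtb12 on the opposite strand overlaps C2. How reads there were divided is not given in the sources used here, so the C2 level, at 96 to 311 counts per library, is uncertain.

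The C1q chains followed each other closely from library to library. C1qa was at 122, 69.8 and 188 CPM (DSS) against 106, 56.1 and 46.6 CPM (DSS+BV). C1qb was at 136, 59.4 and 181 CPM (DSS) against 97.2, 48.9 and 51.5 CPM (DSS+BV). C1qc was at 168, 88.2 and 226 CPM (DSS) against 134, 66.6 and 59.3 CPM (DSS+BV). In each chain DSS 3 was the highest library, and DSS+BV 1 lay above DSS 2, so the groups overlapped. The log2 fold changes were -0.87 for C1qa, -0.93 for C1qb and -0.89 for C1qc, with standard errors between 0.434 and 0.451 and edgeR adjusted p-values of 0.470, 0.455 and 0.456. Without DSS 3 they were -0.46, -0.57 and -0.56, and without DSS+BV 1 they were -1.29, -1.31 and -1.34. Relative to C1qb in the same library, C1qa varied from 0.896 to 1.17 and C1qc from 1.15 to 1.48, and both ratios overlapped between the groups.

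C5ar1, the C5a receptor of neutrophils and macrophages, was at 26.1, 14.6 and 29.6 CPM (DSS) against 16.7, 8.28 and 8.79 CPM (DSS+BV). DSS+BV 1 exceeded DSS 2, and the other DSS+BV libraries lay below every DSS library. The log2 fold change was -1.06 ± 0.380 (edgeR adjusted p = 0.361, DESeq2 adjusted p = 0.170). With 1 library left out it ran from -1.45 without DSS+BV 1 to -0.86 without DSS 3. It was also short of 1 in size without DSS 1 (-0.98), DSS+BV 2 (-0.88) or DSS+BV 3 (-0.91). C3ar1, the C3a receptor, was at 20.4, 14.2 and 30.1 CPM (DSS) against 25.0, 9.75 and 11.1 CPM (DSS+BV). Here DSS+BV 1 was the second highest of the 6 libraries, and the log2 fold change was -0.50 ± 0.440 (edgeR adjusted p = 0.667). It was -1.04 without DSS+BV 1, -0.31 without DSS+BV 3, -0.25 without DSS+BV 2 and -0.18 without DSS 3. The ratio of C3ar1 to C5ar1 within a library was 0.780, 0.970 and 1.02 (DSS) against 1.498, 1.18 and 1.27 (DSS+BV), higher in every DSS+BV library. The ligand gene of C5ar1, Hc, which encodes C5, had only 2 to 15 expected counts per library and did not pass the filter on low counts.

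Levels between genes were compared per kilobase of the longest protein-coding GENCODE M21 transcript, which may differ from the transcripts the authors used. In the DSS group the mean was 148 CPM per kilobase for C3, 134 for C1qc, 122 for C1qa and 115 for C1qb, and these did not differ beyond their SDs of 20.2 to 57.4. Cfb (75.5) and C4b (60.7) followed, and C5ar1 (9.23), C2 (5.56) and C3ar1 (5.005) were the lowest. In the DSS+BV group the order changed: C1qc (72.05), C1qa (66.9) and C1qb (60.5) led, followed by Cfb (49.6), C3 (38.1) and C4b (25.8) CPM per kilobase, again with SDs that span neighbours (13.1 to 34.3).

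Among themselves the members shared much of their pattern over the libraries, and C3 and, in part, C2 departed from it. DSS 2 had the lowest DSS value in 8 of 9 members and DSS 3 the highest value of all libraries in 8 of 9, C3 being the other in both counts. DSS+BV 1 was the highest DSS+BV library in 9 of 9, and it exceeded DSS 2 in 7 of 9, all but C3 and C4b. DSS+BV 2 and DSS+BV 3 were both below every DSS library in 8 of 9, all but C2. On log2 CPM over the 6 libraries, Pearson's r between C1q chains was 0.977 to 0.995. The 28 pairs without C3 spanned 0.637 (C2 with C4b) to 0.995. The 8 pairs with C3 spanned 0.337 with C2 to 0.916 with C4b. These values describe 6 libraries that share a group difference and are given without a test.

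**Figure D2:**
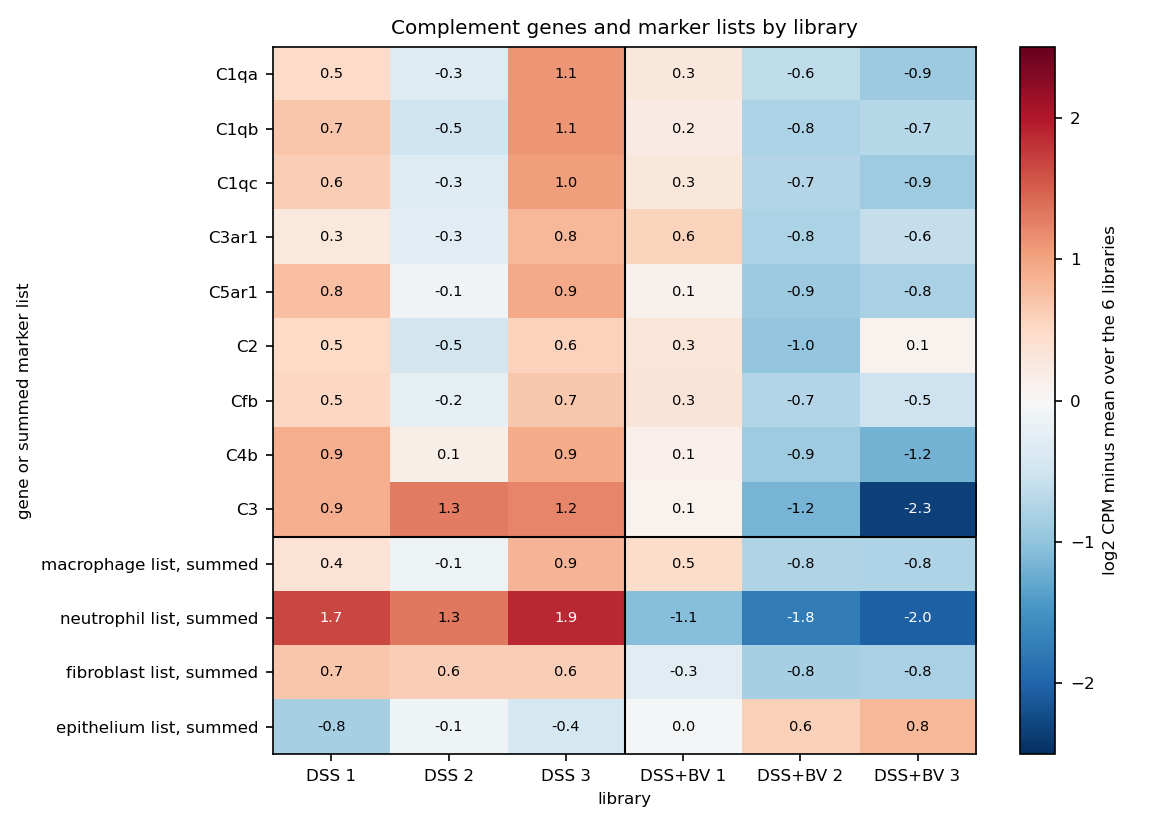
Log2 CPM of the 9 members and of 4 summed marker lists in each library, minus the mean of the row over the 6 libraries (red above, blue below; rows are genes or lists, columns are libraries). The C1q chains, C2, Cfb and C3ar1 are below their row mean in DSS 2 and above it in DSS+BV 1, as is the macrophage list. C5ar1 lies near its mean in both (-0.1 and 0.1). C3 is high in all 3 DSS libraries (0.9 to 1.3) and reaches -2.3 in DSS+BV 3.

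The macrophage list was not alone in this order of libraries. Summed B and plasma cell markers were at 693, 554 and 1656 CPM (DSS) against 1181, 268 and 247 CPM (DSS+BV), and dendritic cell markers at 51.1, 24.4 and 81.5 CPM (DSS) against 52.4, 24.5 and 21.6 CPM (DSS+BV). The part of any of these cells in the C1q values was not tested.

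Set against the summed macrophage markers of the same library, the C1q chains stood at 0.392, 0.282 and 0.390 (DSS) against 0.291, 0.342 and 0.320 (DSS+BV). The groups overlapped, and the highest ratio was 1.39 times the lowest. C3ar1 gave 0.0187, 0.0184 and 0.0197 (DSS) against 0.0216, 0.0194 and 0.0226 (DSS+BV), 1.23 times from lowest to highest, also with an overlap. C5ar1 was lower in every DSS+BV library on this scale (0.0144 to 0.0178 against 0.0189 to 0.0240). Against the neutrophil markers C5ar1 was higher in every DSS+BV library (0.453 to 0.589 against 0.0956 to 0.133), and so was C3ar1 (0.533 to 0.8535 against 0.0928 to 0.132). C3 (0.138 to 0.315 against 0.522 to 1.09) and C4b (0.179 to 0.216 against 0.249 to 0.346) were lower in every DSS+BV library relative to the macrophage markers. Relative to the fibroblast markers both overlapped between the groups, at 0.0444 to 0.167 against 0.149 to 0.205 for C3 and 0.0576 to 0.10 against 0.0542 to 0.0926 for C4b. For C3 the overlap came from DSS+BV 1 alone, since DSS+BV 2 (0.103) and DSS+BV 3 (0.0444) lay below every DSS library. The highest ratio was 4.61 times the lowest for C3 and 1.84 times for C4b. Ratios of sums of different genes have no meaning as levels, and only their change between libraries is read here, without a test.

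**Figure D3:**
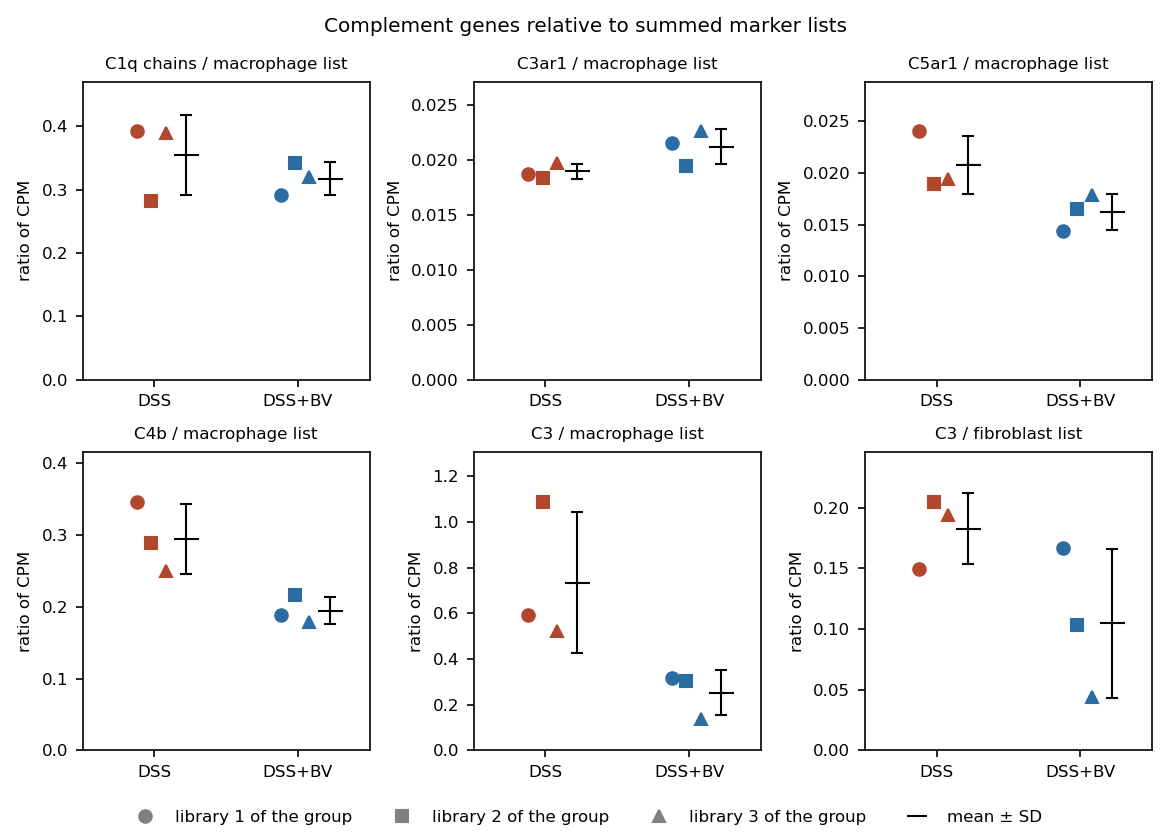
CPM of members divided by the summed CPM of marker genes in the same library (linear axes from 0), for the 3 libraries of each group with mean and SD. The C1q and C3ar1 ratios overlap between the groups, and the C5ar1, C4b and C3 ratios to the macrophage list are lower in every DSS+BV library. The C3 ratio to the fibroblast list overlaps through DSS+BV 1 alone.

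Of 52 other complement genes listed, 51 were in the table (Mbl2 was not analysed here) and 35 passed the filter on low counts. Of the 35, 31 had a log2 fold change below 0, as had 51.5% of all genes tested, and 4 lay above. Their median was -0.83 against -0.01 over all genes tested. EdgeR called 0 of the 35, against 0.0892% of all genes tested. At an unadjusted edgeR p under 0.05, 10 were lower and 1, Cpn1, was higher, as were 496 of all 14579 genes tested. Cpn1 had a log2 fold change of 2.07 ± 0.830, and its groups overlapped. DESeq2 called 2 of the 43 it adjusted (Fcna and C7), both lower, against 1.73% of its genes in the lower direction. C7 passed narrowly (-1.001, DESeq2 adjusted p = 0.0495). Cd59a (-0.974, DESeq2 adjusted p = 0.0415) and Colec12 (-0.988, DESeq2 adjusted p = 0.0495) fell short only in fold change. In 13 of the 35 the highest DSS+BV library was below the lowest DSS library, and in 0 the reverse held, against 11.3% and 6.37% of all genes. The 10 at an unadjusted p under 0.05 stand against 9.12% of all genes in the lower direction. A gene with low counts in 1 group only could pass the filter through the other, so these counts describe the genes that passed.

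Among the initiators, 4 of 8 tested genes had groups that did not overlap (11.3% of all genes in this direction): C1ra, C1s1, Fcna and Colec12. C1ra and C1s1 encode the proteases that sit on C1q. C1ra was at 147, 108 and 214 CPM (DSS) against 99.995, 53.9 and 45.5 CPM (DSS+BV), a log2 fold change of -1.24 ± 0.372 (edgeR adjusted p = 0.329). That of C1s1 was -0.88 ± 0.292 (edgeR adjusted p = 0.345), and -0.58 without DSS 3. Unlike the C1q chains, both were lower in every DSS+BV library, DSS+BV 1 included, but by a narrow margin. In DSS+BV 1 against DSS 2, C1s1 was at 168.9 against 175.5 CPM and C1ra at 99.995 against 108 CPM. Both have near copies, C1rb and C1s2, with at most 1.24 and 9.03 expected counts. The ficolin gene Fcna, a lectin pathway sensor made by macrophages, was at 27.5, 19.1 and 22.1 CPM (DSS) against 7.65, 6.43 and 8.66 CPM (DSS+BV). Its groups lay well apart, and DSS+BV 1 stood with its own group. With a log2 fold change of -1.59 ± 0.220 it had the smallest p of the complement genes listed (edgeR adjusted p = 0.0865, DESeq2 adjusted p = 2.31e-07). Colec12, a scavenger receptor collectin, had a log2 fold change of -1.01 (edgeR adjusted p = 0.290).

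Of the alternative and terminal genes, 4 of 9 passed the filter and 3 of them did not overlap, against the same 11.3%. Cfd, the factor D protease known from fat cells, was at 15.6, 16.5 and 60.0 CPM (DSS) against 10.8, 9.11 and 0 CPM (DSS+BV), and its log2 fold change of -2.21 carried a standard error of 1.25. It was -1.28 without DSS 3, the library at 60.0 CPM, and -1.62 without DSS+BV 3. C6 and C7, components of the membrane attack complex, had log2 fold changes of -1.10 and -1.02 (edgeR adjusted p = 0.281 and 0.300). Properdin, Cfp, overlapped, at -1.30 (edgeR adjusted p = 0.385). The other terminal genes C8a, C8b, C8g and C9 had at most 13 expected counts in any library.

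Of the 13 tested regulators, which mostly restrain complement, 11 had a log2 fold change below 0, against 51.5% of all genes tested. The median of the 13 was -0.41. Serping1, the C1 inhibitor, was at 248.7, 198 and 384 CPM (DSS) against 176, 113 and 111.0 CPM (DSS+BV), a log2 fold change of -1.05 ± 0.304 (edgeR adjusted p = 0.318). Its groups did not overlap, and the same held for Cd59a (-0.99), Vtn (-0.83) and Cr1l (-0.30), so 4 of 13 tested regulators did not overlap, against 11.3% of all genes. Vtn was in effect level in the nearest libraries, at 21 expected counts in DSS 1 and 19 in DSS+BV 1, and its fold change was -0.44 without DSS 2. Of 10 receptors, the integrin subunit gene Itgam, a part of complement receptor 3, had a log2 fold change of -1.31 (edgeR adjusted p = 0.329) and Megf10 one of -1.15 (edgeR adjusted p = 0.456), both without overlap (2 of 10, against 11.3%). Megf10 had 3 to 27 expected counts per library and was at -0.75 without DSS+BV 1. Calr, the most abundant of the receptors listed, was at 0.16, with 0.31 without DSS 1 and 0.06 without DSS 2.

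**Figure D4:**
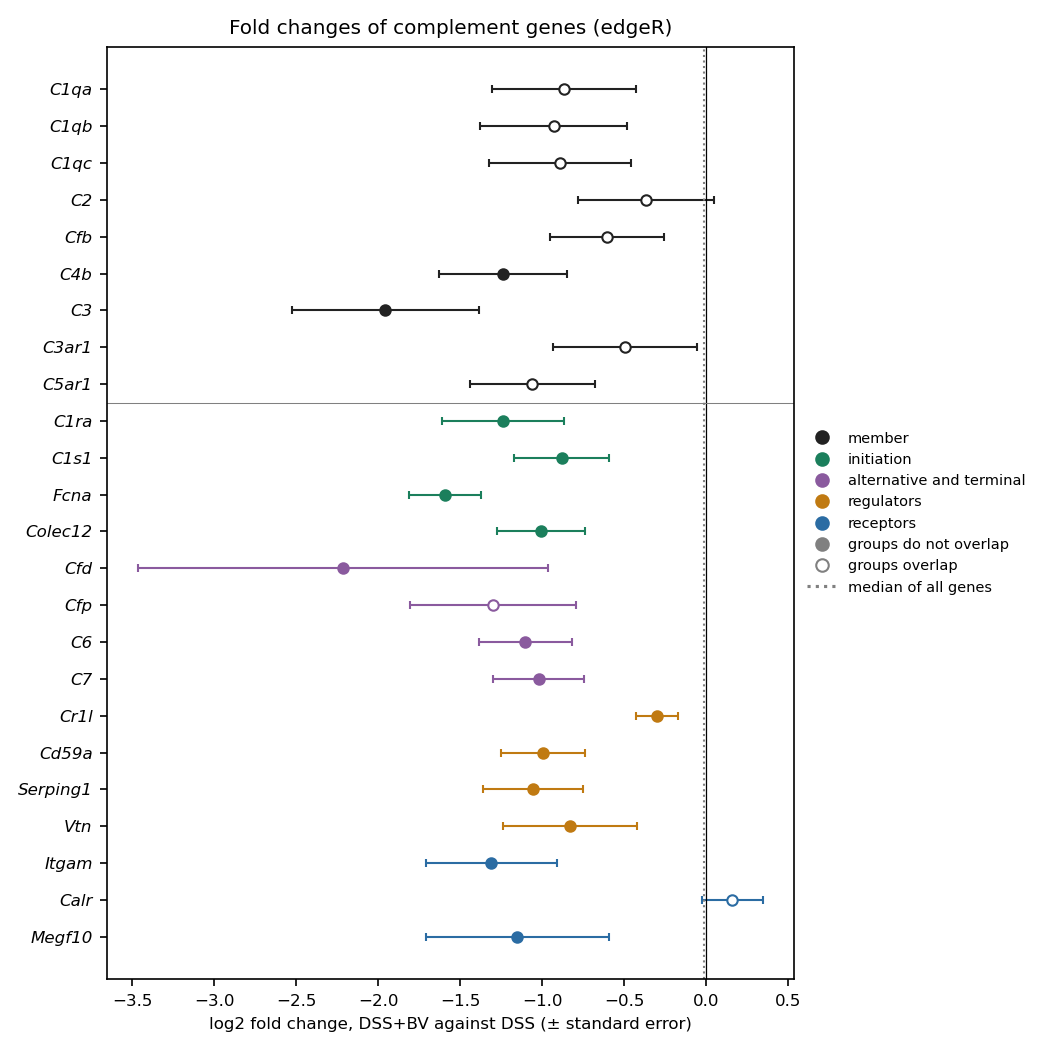
Log2 fold changes of DSS+BV against DSS with standard errors from edgeR, for the 9 members above the line and 15 other complement genes below it, coloured by role; filled points mark genes whose groups do not overlap, and the dotted line is the median of all genes tested (-0.01). Of the genes drawn, all but Calr (0.16) have a fold change below 0, and C3 (-1.96) is the lowest of the members. Of the 15 others, 13 are drawn because their groups did not overlap, so they do not represent all complement genes tested. Of the 4 tested genes above 0 outside the members, only Calr is drawn, and Cpn1 (2.07) is not.

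The genes most like each role group over the 6 libraries were found from Pearson's r with the mean standardised log2 CPM of the group. Closest to the C1q chains were Vcam1 (r = 0.997), Rbm43 (0.996), Gbp5 (0.996), Fcer1g (0.994) and Mfng (0.994). Closest to the convertase genes were Sdc3, Robo1, She, Gna15 and Tyrobp (r from 0.991 to 0.994), and closest to the receptors Gmpr, Ptgis, Prkd3, Fes and Sox18 (r from 0.996 to 0.999). Among these 15 genes, Fcer1g and Tyrobp encode signalling adaptors of myeloid cells, and Vcam1 an adhesion molecule of endothelium and macrophages. The other genes were not sorted by cell type, so no cell source is read from the list. All 15 were picked for the highest r among many genes over 6 libraries, so high values follow in part from the selection. The r values are given without a test. The log2 fold changes of these 15 genes lay between -1.42 for Gna15 and -0.17 for Prkd3.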

How the data were processed

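Colon RNA was sequenced in 6 libraries (DSS, n = 3, and DSS+BV, n = 3). RSEM was used by the authors, and the deposited values are expected counts per gene, unscaled between libraries. The submitters' processing notes name HISAT2 2.1.0, Bowtie2 2.2.5, RSEM 1.2.8 and the build GRCm38.p6. The strand setting is not given in the sources used here. Columns were matched to samples through the sample titles and descriptions.

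Values were rounded, filterByExpr (minimum count 10, minimum total 15) and TMM scaling were applied, and 14579 genes were fitted in edgeR 4.0.16 (R 4.3.3) by quasi-likelihood. Benjamini-Hochberg adjustment covered all of them. A call needed an adjusted p below 0.05 together with a log2 fold change beyond 1 in either direction. CPM are relative to TMM-scaled totals. Correlations used log2 CPM with a prior count of 2. The test was first checked on simulated counts. A single gene cannot go below an exact two-sided permutation p of 0.1 with 3 against 3 libraries.

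The members, gene lists, marker lists and motifs were chosen with earlier results of these data known, and 1 complement gene is not reported here. Named genes outside the members were those whose groups did not overlap or that were called, the most abundant per role, the 5 most alike per role group, and genes in counts of 5 or fewer, which were chosen after their values were seen, as were C4a, C1rb, C1s2 and Hc. Results were recomputed with DESeq2 1.42.0, with factors from RLE or the upper quartile, with other filters, with a robust fit, and with the replicate number as a block, other thresholds or each library left out. Those for genes outside the members were added after the data were seen. Promoters came from RefSeq (GRCm38.p6), transcript lengths from GENCODE M21. Figures were drawn with matplotlib 3.10.9.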

Additional observations from a re-analysis of the deposited data

How the results depend on the processing

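The number of called members was 0 with RLE factors, upper-quartile factors, both other filters, a robust fit, either other threshold and any library left out (0 to 0), and 1 (C3) with DESeq2. The number of other complement genes called was 0 in the same settings and with any library left out (0 to 0). The exceptions were 1 (Fcna) at an adjusted p under 0.1, and 2 (Fcna and C7) with DESeq2, which called 1.73% of all its genes lower. Over all genes, edgeR called 0 without DSS 1, DSS 3, DSS+BV 2 or DSS+BV 3, and 1 without DSS 2. Without DSS+BV 1 it called 3 lower and 4 higher. The counts of 0 with a library left out therefore cannot set complement apart from other genes. The number of members whose groups did not overlap ranged from 2 to 8 with 1 library left out, at 8 without DSS 2 and without DSS+BV 1, and was 2 with the other factors and filters. Over all genes, the share was 12.7% to 20.5% with 1 library left out, and 9.23% to 13.4% with the other factors and filters. Why DESeq2 called more genes was not tested. With the replicate block, 0 members and 0 other complement genes were called, and over all genes 0 against 13. The replicate numbers were not shown to pair the libraries: same-numbered libraries deviated from their group means with r = 0.267, 0.255 and -0.296. Of 126 alternative results of members, 125 kept their direction and, like the main fit, were not called. The same held in 192 of 194 for the 15 named genes outside the members. The others (C3, Fcna and C7, all with DESeq2) kept their direction and were called. Of the 15 named genes, 13 were chosen because their groups did not overlap, all lower in DSS+BV. With 1 library left out, the direction of these 13 could therefore hardly reverse. Results of members at an adjusted p under 0.1 reuse the main fold changes, so their direction could not differ. Fold changes did cross 1 in size: C4b went from -1.24 to -0.99 without DSS+BV 3, and C1qa from -0.865 to -1.29 without DSS+BV 1. Depth limits the statements on Hc and the other genes under the filter.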
